A study of Danio rerio with 30 samples.

Results

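The genes described here are those whose symbols mark them as building or moving cilia: every feature whose symbol begins with cfap, dnaaf, dnah, dnai, rsph or tekt, or with ift followed by a digit, and that had at least 20 unique molecular identifiers (UMIs) over 22 single-cell libraries of zebrafish embryos. Of 27597 features in the tables, 22667 reached 20 UMIs, 66 matched the symbol rule and 65 met both conditions. The 1 that did not was tekt2. They are 22 cfap genes, 13 dnah genes (dnah11 is present under 2 gene IDs), 12 ift genes, 6 rsph genes, 5 dnaaf genes, 4 dnai genes and 3 tekt genes. The choice rests on names and on a total of at least 20 UMIs in the same libraries. Apart from that total, the rule did not use levels or changes of these genes.

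Motile cilia are hair-like cell projections that beat by sliding their microtubule doublets against each other. Outer and inner dynein arms, whose heavy chains are the dnah products and whose intermediate chains include the dnai products, supply the force; the dnaaf products assemble these arms in the cytoplasm, and radial spokes, which contain rsph products, help control them. Tektins and many cfap products line the inside of the doublets, and intraflagellar transport (the ift products) carries parts along motile and non-motile cilia alike. In the zebrafish embryo the vesicle of Kupffer, a small organ that forms from dorsal forerunner cells and sets the left-right axis, carries motile cilia, as does the floor plate of the neural tube, and the transcription factors Foxj1 and Rfx switch on motile cilia genes.

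The series asked how transcription factors of the unfolded protein response (xbp1, atf6, creb3l1 and creb3l2) act across tissues of the whole embryo. Libraries were made with the 10x 3' V3 kit from about 30 pooled TL/AB embryos each. The spread between libraries of the same group is that between pools. At 12 hours after fertilization (hpf), 16 libraries held 62385 cells after filtering, and at 8 hpf, 6 libraries held 19021 cells. The 12 hpf libraries fall into sets A and B of 8 libraries, counted with different Cell Ranger versions, and all 8 hpf libraries form set D. The remaining 8 libraries of the series were not analysed here.

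The 12 hpf groups were uninjected wild type (2 libraries), tyr crispants as the injected control (2), atf6 crispants (1), xbp1 crispants (1), xbp1 and atf6 double crispants (1), creb3l2 crispants (1), creb3l1 crispants (1), uninjected embryos of a homozygous creb3l1 mutant line (2), and 4 combinations made by injecting crispant reagents into that mutant line: creb3l2 (1), atf6 with creb3l2 (1), xbp1 with creb3l2 (1), and xbp1, atf6 and creb3l2 together (the quadruple, 2). Crispants were injected with Cas9 and guide RNA at the 1-cell stage and are mosaic. The 8 hpf libraries came from embryos injected with mRNA. An mCherry library (125 pg) and a full-length creb3l2 library (40 pg) were not crispant, whereas a second mCherry library and libraries with the N-terminal parts of atf6, creb3l1 or creb3l2 (atf6-N, creb3l1-N and creb3l2-N, 40 pg each) were xbp1 crispants. There was 1 library for each 8 hpf group.

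Summed UMIs per library ranged from 37677042 to 120722910 at 12 hpf and from 40560649 to 100654147 at 8 hpf. No pair of libraries shared more than 0.388% of cell barcodes. Loss of a factor was fitted with edgeR on UMI counts summed per library, over all cells or over 1 cell class, with a term for each of the 4 factors and for the set; p-values were Benjamini-Hochberg adjusted over all genes tested, and a gene was called below 0.05. The targeted mRNA was lower in embryos lacking atf6 (log2 change -2.27, adjusted p = 9.57e-06), creb3l2 (-1.84, 6.15e-06) and xbp1 (-0.86, 0.0292). That of creb3l1 gave -0.31 (adjusted p = 0.445), and an mRNA level does not check a mutant allele. Levels are given as CPM, the count of a gene scaled to a fixed library total. They come from 3' ends, with no length correction, so an order of levels between genes is not read from them.

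Motile cilia genes had their highest summed levels in a pair of small cell classes at 12 hpf. Most of their UMIs lay in other cells, since these classes held 4472 and 24505 of 413904. Clustering was done without these genes, and classes were named from other markers. A class of 65 cells from 13 libraries, called Kupffer's vesicle-like here, held sox17 at 603 CPM (1.34 in all other cells), sox32 at 775 (1.14) and dand5 at 689 (0.0364), and also the chloride channel gene cftr at 112 (0.106). Other listed markers went against the name: vgll4l was at 24.8 CPM (54.8 elsewhere), tbx16 at 32.5 (98.6), cdh1 at 69.7 (112), cx43.4 at 525 (987) and cldn7a at 0, so the name rests on 4 markers among its 50 leading genes (sox17, sox32, dand5 and the cilia regulator foxj1a), beside 2 of endoderm. A class of 800 cells from 16 libraries, called floor plate-like, held shha at 540 CPM (22.4 elsewhere), shhb at 805 and foxa2 at 966. Its leading genes contained 7 floor plate markers and 5 of hypochord.

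Summed over the 65 genes, the vesicle-like cells had 6928 CPM at 12 hpf when pooled over all genotypes (exact Poisson 95% interval 6726 to 7134, counting error only), which was 17.2 times the level of all other cells. Of these cells, 45 came from libraries lacking creb3l1 and 32 from libraries lacking xbp1, whereas wild type and tyr libraries gave 4 each. The value and the ratios built on it are thus not those of wild type embryos alone. Single libraries, with 1 to 14 of these cells each, differed by set. They ran from 3317 to 6164 CPM in set A and from 6238 to 9652 CPM in set B. The floor plate-like cells had 2044 ± 439 CPM (SD, n = 16 libraries, 1343 to 2826), and pooled 5.15 times the level of other cells. All cells together had 411 ± 40.5 CPM (n = 16, 343 to 490). Even the lowest library of floor plate-like cells thus lay above every library of all cells. Other classes lay within a narrower band, with pooled sums of 639 CPM in primordial germ cell-like, 564 in spinal cord-like, 516 in notochord-like, 473 in tailbud-like, 463 in endoderm-like and 458 in pronephros-like cells. The lower end held basal epidermis-like cells at 285, periderm-like at 270, yolk syncytial layer-like at 248 and hatching gland-like cells (a class that shares its markers with the prechordal plate) at 169.

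**Figure D1:**
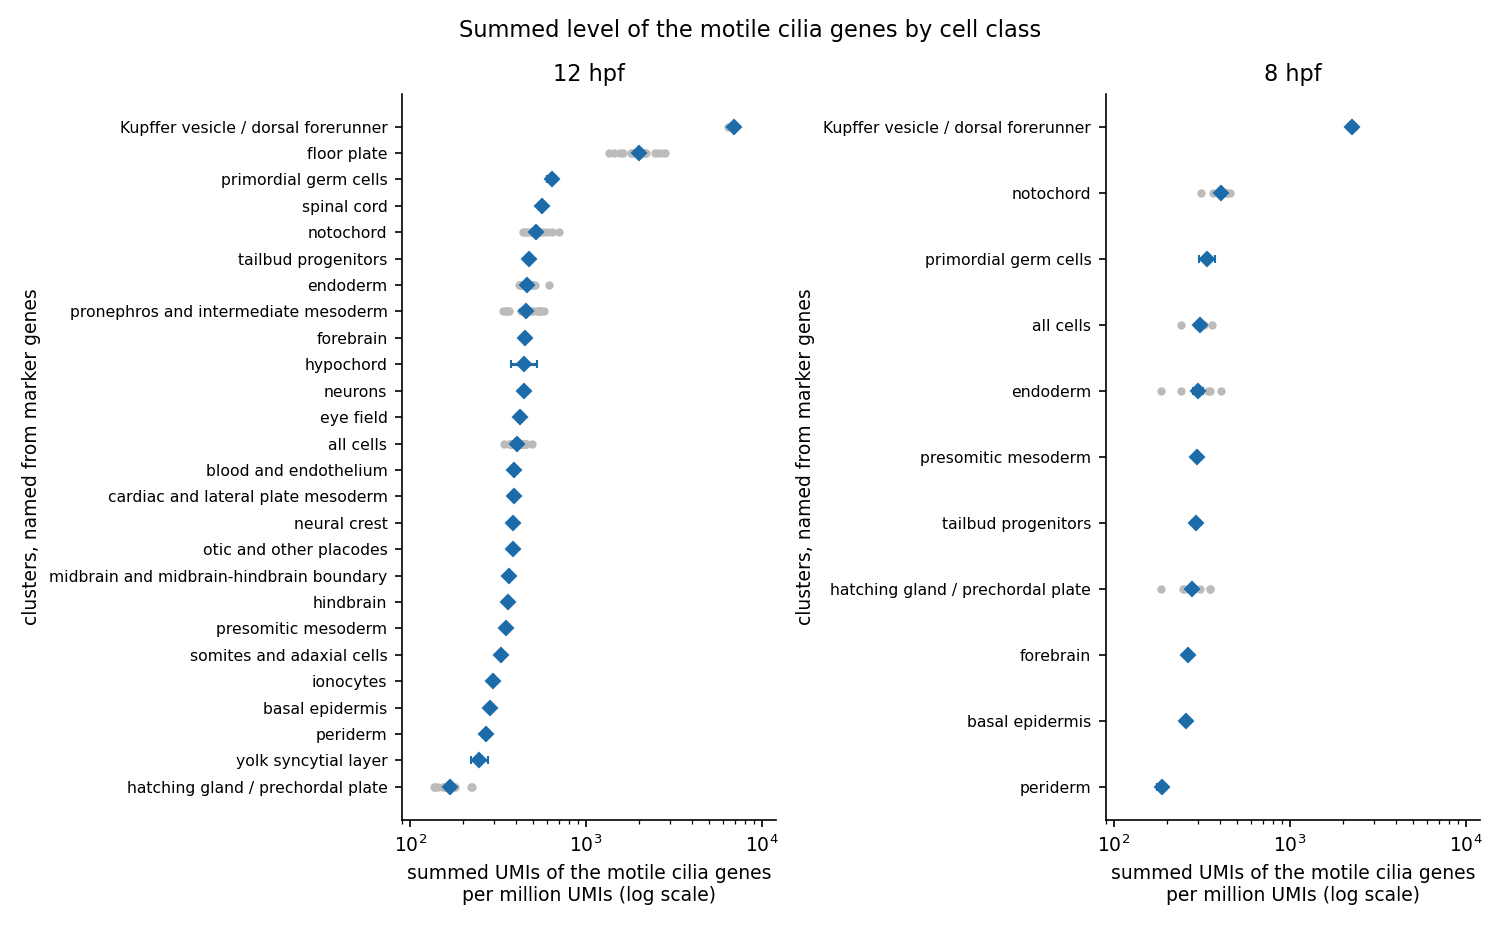
Summed CPM of the 65 motile cilia genes (log axis) by cell class at 12 hpf and 8 hpf; blue diamonds are pooled cells with the exact Poisson 95% interval, and grey points are single libraries with at least 10 cells of the class, shown for classes summed per library. The vesicle-like class stands at 6928 CPM and the floor plate-like class at 1996 CPM pooled at 12 hpf, above all other named classes, and the hatching gland-like class is lowest at 169.

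Member by member, 60 of 65 genes were more than 2-fold higher in vesicle-like cells than in other cells, where 20.9% of all features were, and the median ratio was 101 (0.62 over all features). Floor plate-like cells had 59 of 65 more than 2-fold higher (11.5% of all features), with a median ratio of 17.0 (0.95 over all features). The median was 1.03 in notochord-like and 1.07 in pronephros-like cells. In hatching gland-like cells 48 of 65 were at less than 0.5 of the level in other cells (42.3% of all features), with a median of 0.17. These ratios describe clusters and carry no test. Most genes (60 of 65) had their highest level in the vesicle-like class, and the exceptions were cfap97 and cfap410 (highest in primordial germ cell-like cells, at 68.6 and 5.67 CPM), dnai2a (germ cell-like, 2 UMIs), dnah3 (forebrain-like, 33 UMIs) and tekt3 (notochord-like, 21 UMIs). Some of the 60 rested on few vesicle-like UMIs, such as dnah9l and dnai1.1 (2 each) and dnaaf2 (4). That of cfap410 rested on 10 UMIs, beside 5.54 CPM in floor plate-like cells.

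The families differed in how far they were restricted to these classes. Vesicle-like and floor plate-like cells together carried 70.2% of tekt UMIs, 37.2% of dnai, 33.6% of rsph, 31.2% of dnaaf and 23.3% of dnah UMIs at 12 hpf, but 8.27% of cfap and 4.15% of ift UMIs. The pooled ratio of vesicle-like to other cells was 1052 for the tekt genes, 115 for dnai, 110 for dnah, 87.3 for rsph, 68.2 for dnaaf, 22.8 for cfap and 6.33 for ift. The order differed in floor plate-like cells, with dnai at 35.7, tekt at 35.3, rsph at 32.4, dnaaf at 30.3, dnah at 16.4, cfap at 6.02 and ift at 3.19. These pooled values weigh genes by UMIs, and cfap20 and cfap298 held 54490 and 47639 of the 148093 cfap UMIs at 12 hpf. By gene, the median ratio in vesicle-like cells was 1004 for tekt, 181 for cfap and 113 for dnah. It was 101 for dnaaf, 89.8 for rsph, 76.6 for dnai and 5.69 for ift. Floor plate-like medians were 44.0 for dnaaf, 31.2 for cfap, 23.4 for dnah and 21.8 for dnai. They were 20.7 for rsph, 17.0 for tekt and 3.62 for ift. Transport genes were thus the least restricted family in both classes.

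**Figure D2:**
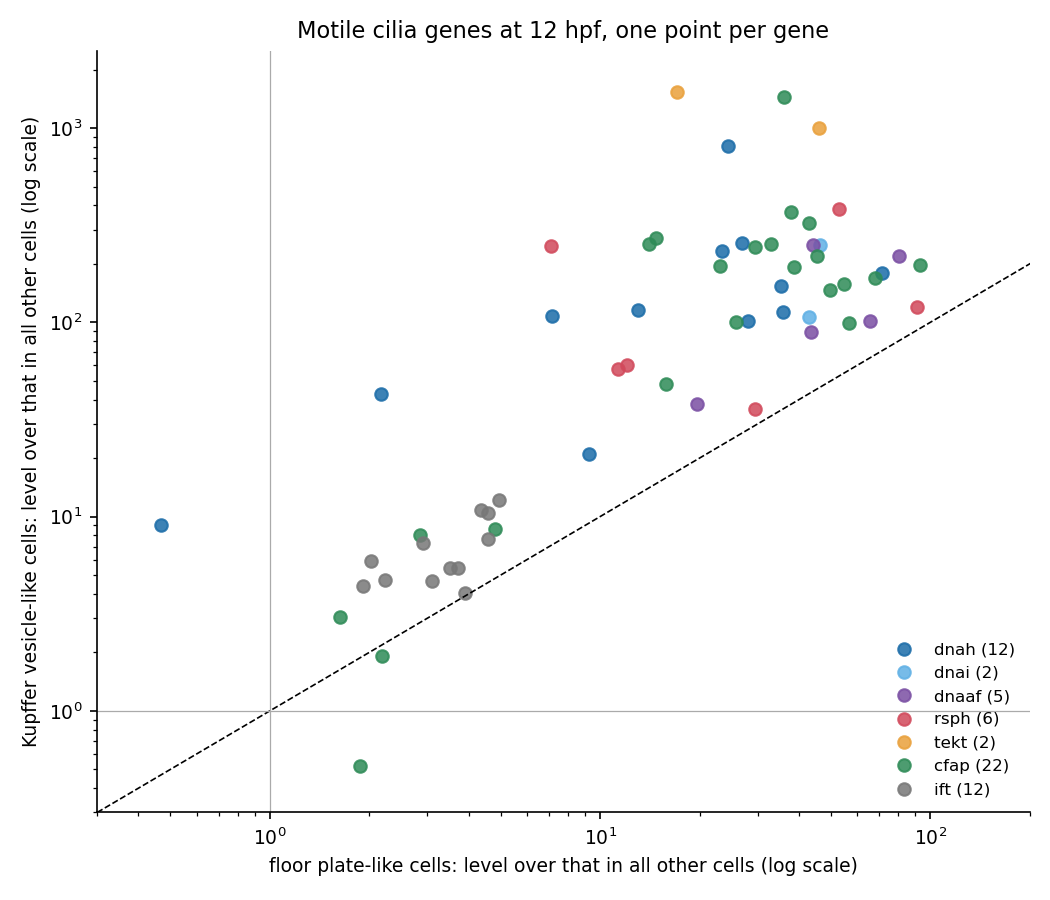
Ratio of pooled CPM in vesicle-like cells to other cells (vertical, log axis) against the same ratio in floor plate-like cells (horizontal, log axis), 1 point per gene, coloured by family; the dashed line marks equal ratios, and 4 genes with a ratio of 0 in either class are not drawn. The ift genes lie near the lower left (family ratios 6.33 and 3.19), and tekt4 lies farthest above the dashed line.

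Among outer arm dynein heavy chains, dnah5 was at 135 CPM in vesicle-like cells (87 UMIs, 256 times other cells), and its relative dnah5l was at 57.3 CPM (37 UMIs, ratio 809). Among inner arm heavy chains, dnah2, the dnah gene with the most UMIs in all (2143), was at 110 CPM (ratio 108), and dnah10 was at 92.9 CPM (ratio 179). In floor plate-like cells dnah10 was at 22.6 ± 10.0 CPM (n = 16) and 71.2 times the level of other cells. The intermediate chain dnai1.2 was at 101 CPM in vesicle-like cells (ratio 106) and 29.2 ± 9.56 CPM in floor plate-like cells (ratio 42.9). The floor plate-like levels of dnah5, dnah2 and dnah5l were 12.4 ± 4.14, 7.17 ± 3.57 and 1.94 ± 1.98 CPM (n = 16), below those in vesicle-like cells.

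The assembly factors followed the same classes. The level of dnaaf4 was 203 CPM in vesicle-like cells (ratio 38.1) and 87.3 ± 18.6 CPM in floor plate-like cells, and that of dnaaf1 was 187 CPM (ratio 101) and 74.2 ± 24.2 CPM. Of the radial spoke genes, rsph3 was at 51.1 CPM in vesicle-like cells (33 UMIs, ratio 385), and rsph9, the product of which sits in the spoke head, at 101 CPM (ratio 119). In floor plate-like cells rsph9 was at 43.3 ± 25.2 CPM and rsph4a, another spoke head gene, at 42.8 ± 14.9 CPM (n = 16). An exception was rsph14, which in hatching gland-like cells was at 8.49 CPM (254 UMIs, 68.7 times other cells), although its highest level was in vesicle-like cells at 79.0 CPM.

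Ratios differed widely among the tekt and cfap genes. In vesicle-like cells tekt4 was at 138 CPM (89 UMIs, ratio 1540), cfap157 at 141 (91 UMIs, ratio 1448) and tekt1 at 305 (197 UMIs, ratio 1004). Lower ratios, below those of dnah5l and rsph3, were seen for cfap77 (370), cfap57 (325), cfap100 (272) and cfap299 (253). The tektin level was much lower in floor plate-like cells, where tekt1 was at 15.4 ± 7.26 CPM (n = 16, 3.54 to 26.6). In contrast cfap20, a seam protein of the doublet, and cfap298, which zebrafish need for cilia to beat, had only 8.02-fold and 8.68-fold higher levels in vesicle-like cells (428 and 404 CPM). They also had the most UMIs of the 65 genes in all libraries, 67432 for cfap20 and 64473 for cfap298.

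Next by UMIs were 7 transport genes, ift57 (54903), ift20 (53267), ift27 (44381), ift74 (34557), ift52 (32227), ift46 (29897) and ift172 (21849), and then cfap36 (21710). The vesicle-like level was 214 CPM for ift57 (ratio 5.45), 218 for ift27, a small GTPase (7.30), and 181 for ift20 (5.94). The ift20 product also works at the Golgi in mammalian cells, and in notochord-like cells ift20 was at 123 CPM (3006 UMIs, 4.33 times other cells).

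The regulators of the programme were found in the same classes, with a difference between the foxj1 genes. Vesicle-like cells held foxj1a, the main activator of motile cilia genes, at 499 CPM, and floor plate-like cells held it at 191, against 6.93 in all cells. It was on the marker lists of both classes and of the pronephros, so these levels are a description and no test of the names. The pronephros-like class held foxj1a at 96.9 CPM, although the 65 genes had a median ratio of 1.07 there. For foxj1b the order was reversed, with 130 CPM in floor plate-like cells and a single UMI (1.55 CPM) in vesicle-like cells. Floor plate-like cells held rfx2 at 155 CPM and vesicle-like cells at 77.5 (26.6 in all cells), and rfx3 was at 6.93 and 13.9 CPM. No UMI of gmnc, a regulator of cells with many cilia, was found in vesicle-like cells, and floor plate-like cells held it at 2.04 CPM. The notochord gene noto, which acts upstream of Foxj1 in the mouse node, was at 998 CPM in vesicle-like cells, 1119 in notochord-like and 237 in floor plate-like cells.

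Other genes named in connection with cilia, 144 of 166 listed of which had at least 20 UMIs, were mostly higher in vesicle-like and floor plate-like cells. In vesicle-like cells 121 of 141 were more than 2-fold higher (4499 of 21481 over all features), with a median ratio of 34.4 (0.62 over all features). The same held for 125 of 141 in floor plate-like cells (2477 of 21480 over all features), with a median of 6.66 (0.95 over all features).

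The question of stage was put by comparing all cells of the 16 libraries at 12 hpf with those of the 6 at 8 hpf. Stage, set and mRNA injection cannot be told apart here, since all 8 hpf libraries were injected with mRNA and form 1 set. Of 56 motile cilia genes tested by edgeR, 39 were higher at 12 hpf and 7 were lower; of all genes, 36.1% were higher and 35.1% were lower. The median log2 change was 1.12 for these genes and -0.00 over all genes. All genes called came to 71.2%, and an unadjusted p below 0.05 was found for 47 of the 56 (73.3% of all genes). DESeq2 called 46 (12636 of all 17673 genes). Of the 46 called genes, 19 had ranges that did not overlap between stages and 27 had ranges that did. The share over all genes is not given here, so these counts are not read as particular to these genes. In sums over all cells, fewer cells of a type and less RNA per cell cannot be told apart: floor plate-like cells were 1.29% of cells on average at 12 hpf and no class took that name at 8 hpf.

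The rise was uneven between families. All 3 dnaaf genes tested rose (median log2 change 2.58), as did both tekt genes (median 1.60), 5 of 6 rsph genes (2.29 over the family), 14 of 21 cfap genes (1.27) and 2 of 3 dnai genes (1.91). Of 12 ift genes, 9 rose, with a median of only 0.43. The dynein heavy chains were divided, with 4 of 9 higher and 4 lower (median -0.27).

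For cfap299, levels were 0.0203 ± 0.0199 CPM (n = 6) at 8 hpf and 1.02 ± 0.329 CPM (n = 16) at 12 hpf, a log2 change of 5.68. The doublet protein gene cfap45 rose from 0.396 ± 0.252 to 3.75 ± 1.05 CPM (3.31), and cfap20 from 23.9 ± 2.58 to 54.6 ± 9.30 CPM (1.27). Log2 changes of other genes that rose were 4.97 for rsph14, 3.01 for cfap58, 3.01 for rsph9, 2.78 for dnaaf1, 2.58 for dnaaf3, 2.50 for cfap52, 2.33 for rsph4a, 2.1 for dnaaf4, 2.05 for dnah12, 2.02 for tekt1, 1.91 for dnai1.2 and 1.31 for ift22.

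The 7 lower genes were rsph10b (log2 change -1.63), dnah10 (-1.50), dnai2a (-1.49), cfap100 (-1.43), dnah7 (-1.25), dnah2 (-0.95) and dnah9l (-0.48). The ranges of cfap100 did not overlap, with 0.351 to 1.60 CPM at 12 hpf and 1.80 to 3.15 at 8 hpf. That of dnah10 rested on the creb3l1-N and creb3l2-N libraries, at 4.25 and 4.93 CPM, since the other 4 libraries at 8 hpf were between 0.120 and 0.395 CPM. Of the regulators foxj1a rose by 0.73 (adjusted p = 0.0481) and rfx2 fell by 0.33 (adjusted p = 0.0025).

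**Figure D3:**
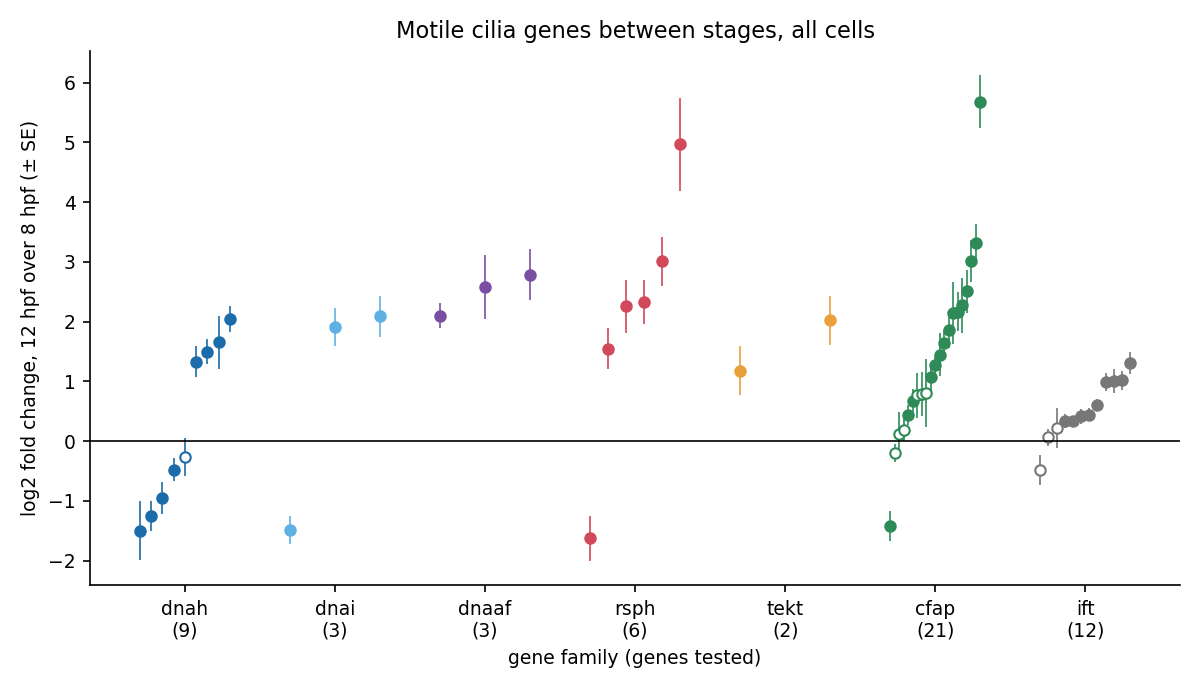
Log2 change from 8 to 12 hpf (vertical axis, ± SE from edgeR) of the 56 tested genes by family; filled points passed the adjusted threshold. Most cfap, rsph, dnaaf and tekt genes lie above 0, the ift genes lie close to 0 with a median of 0.43, and the dnah genes lie on both sides.

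A vesicle-like class was also found at 8 hpf, with 30 cells from 5 libraries. It held sox32 at 4319 CPM, sox17 at 1308, vgll4l at 1879 and cftr at 329, with dand5 at 0 and cx43.4 at 933 (1963 in other cells). The 65 genes summed to 2255 CPM there, 7.40 times other cells, against 308 CPM in all cells pooled. At this stage cfap298 was at 459 CPM, dnah5 at 205 (134 UMIs, ratio 734), dnaaf1 at 97.9 and tekt1 at 39.8 CPM. No UMI of rsph14, rsph10b, dnah3, dnai1.1, dnai2a or tekt3 was found in these 30 cells. The class held foxj1a at 1273 CPM, noto at 843 and rfx2 at 259. Radial spoke genes summed to 47.4 CPM at 8 hpf and to 342 at 12 hpf, and dnah genes to 378 and 675. Vesicle-like cells of the 5 libraries (2 to 12 each) had 1277 to 2335 CPM, so no 8 hpf library reached the lowest 12 hpf library (3317 CPM).

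The next question was whether loss of an unfolded protein response factor changed these genes at 12 hpf. In all cells 58 of the 65 genes were tested. Loss of xbp1 called none of them by edgeR (0.121% of all genes) or DESeq2, and 3 had an unadjusted p below 0.05 (9.01% of all genes). Loss of atf6 called none by either tool (0.00551% of all genes), with 0 at an unadjusted p below 0.05 (2.84%), and loss of creb3l2 called none by either tool (0.022%), with 4 at an unadjusted p below 0.05 (6.89%). Loss of creb3l1 raised 2, dnah1 and cfap70, and called no gene as lower; 1.02% of all genes were higher and 2.57% were called in either direction. At an unadjusted p below 0.05 there were 14 (18.7% of all genes), and DESeq2 called 5 (1134 of all 18165 genes), 4 higher and 1 lower. The share of these genes called, at either threshold, is near that over all genes.

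The inner arm heavy chain dnah1 was rare. Its level in the 8 libraries that lacked creb3l1 ran from 0.0888 to 0.285 CPM with a median of 0.175 (5 to 20 UMIs a library), and in the 8 with creb3l1 from 0 to 0.0493 CPM with a median of 0.0182 (0 to 5 UMIs). The lowest library lacking creb3l1 was the creb3l1 crispant, at 0.0888 CPM (5 UMIs). The others lacking it came from the mutant line, so loss and line cannot be told apart in them. Every library lacking creb3l1 was above every library with it, in the same counts that gave the call. The log2 change was 2.35 ± 0.46 (SE, edgeR adjusted p = 0.0174), and the direction was shared by sets A (0.129 ± 0.0477, n = 3, against 0.0206 ± 0.0178, n = 5) and B (0.200 ± 0.0822, n = 5, against 0.0377 ± 0.0180, n = 3). The call was lost without replicate 1 of the creb3l1 mutant (adjusted p = 0.164), without the creb3l2 crispant (0.114) or without replicate 2 of the mutant (0.0577), and ranged from 0.00263 to 0.164 over single omissions.

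The level of cfap70 was 0.334 to 0.490 CPM in libraries lacking creb3l1 (median 0.390) and 0.0819 to 0.282 in the others (median 0.144). These ranges did not overlap either, and the highest of the libraries with creb3l1 was the creb3l2 crispant. The share of all genes with ranges apart is not given here. Both genes were picked by a call on the same counts, so the ranges add no support to the calls. The log2 change was 1.06 ± 0.24 (SE, edgeR adjusted p = 0.0314). It was no longer called with a term for injection (adjusted p = 0.0591) or without any 1 of 6 libraries: replicate 1 of the creb3l1 mutant (0.169), replicate 2 of it (0.0979), the creb3l2 crispant (0.117), atf6 with creb3l2 in the mutant (0.0575), tyr replicate 2 (0.0536) or wild type replicate 2 (0.0669). The gene cfap43 came next by p, at 1.69 ± 0.602 and 0.855 ± 0.194 CPM, with an adjusted p of 0.0761.

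Cell classes rich in these genes also differed in number between the same libraries. Vesicle-like cells were 0.168 ± 0.127% of cells in libraries lacking creb3l1 (n = 8) and 0.060 ± 0.044% in the others (n = 8), and floor plate-like cells 1.44 ± 0.258% and 1.15 ± 0.303%. These gaps lay in set B: vesicle-like shares there were 0.242 ± 0.0960% (n = 5) without creb3l1 and 0.0679 ± 0.0300% (n = 3) with it, against 0.0448 ± 0.0433% (n = 3) and 0.0557 ± 0.0533% (n = 5) in set A. Floor plate-like shares were 1.5 ± 0.232% and 0.842 ± 0.149% in set B, where 2 of the 3 libraries with creb3l1 are wild type, and 1.34 ± 0.317% and 1.33 ± 0.194% in set A. In all cells both dnah1 and cfap70 were higher without creb3l1 within each set. In floor plate-like cells dnah1 was at 1.96 ± 0.977 CPM without creb3l1 and 0 with it in set A. It was at 0.973 ± 1.21 and 2.02 ± 2.11 CPM in set B, the other direction. The level of cfap70 was 0.382 ± 0.0174 against 0.155 ± 0.0754 CPM in set A and 0.416 ± 0.0621 against 0.191 ± 0.0630 CPM in set B. Libraries lacking xbp1 had 0.204 ± 0.132% vesicle-like cells (n = 5) against 0.073 ± 0.067% (n = 11), with 0.0807 ± 0.0113% (n = 2) against 0.0419 ± 0.0509% (n = 6) in set A and 0.286 ± 0.0984% (n = 3) against 0.111 ± 0.0681% (n = 5) in set B. Vesicle-like cells numbered 32 in libraries lacking xbp1 and 33 in the others, and 45 and 20 for creb3l1. In set B the libraries lacking xbp1 were also those lacking creb3l2, and all of them lacked creb3l1. The gaps for xbp1 and creb3l1 thus rest in part on the same libraries, and set B cannot tell xbp1 from creb3l2. The part of these shares in gene levels was not tested. The 3 genes with the smallest p for loss of xbp1, none of them called, were tekt1 (0.722 ± 0.305 against 0.384 ± 0.138 CPM, adjusted p = 0.417), tekt4 (adjusted p = 0.451) and cfap410 (0.538). The smallest p after loss of atf6 were those of cfap53, ift172 and rsph4a (adjusted p = 1.00 each), and after loss of creb3l2 those of cfap53 (0.662), tekt4 (0.684) and cfap298 (0.692).

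In floor plate-like cells 40 of the 65 genes were tested, and 1 was called, cfap126 after loss of creb3l1, where 0.26% of all genes were called and 0.232% were lower. There were 13 genes at an unadjusted p below 0.05 (10.8% of all genes), and DESeq2 called 2 (36 of all 6911 genes). In the mouse the cfap126 product is known as Flattop, which lies inside the doublets and helps to place basal bodies. Its level was 3.35 to 38.9 CPM in the 8 libraries lacking creb3l1 (median 13.8) and 27.3 to 127 CPM in the other 8 (median 63.3). Only the creb3l1 crispant (38.9) and the atf6, creb3l2 and creb3l1 combination (28.9), among libraries lacking creb3l1, were above the lowest library with it, a wild type library at 27.3. Of the libraries lacking creb3l1, only the creb3l1 crispant came from outside the mutant line. The log2 change was -1.70 ± 0.35 (SE, edgeR adjusted p = 0.0489).

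This call lies at the threshold and ended with a term for injection (adjusted p = 0.0798) and in 12 of 16 omissions of 1 library; it held without the atf6 crispant, wild type replicate 1, the creb3l1 crispant or quadruple replicate 2. Over all 16 omissions the adjusted p ran from 0.00177 to 0.31 and the log2 change from -2.14 to -1.35. The level was lower within both sets, at 22.1 ± 7.28 (n = 3) against 94.8 ± 31.2 CPM (n = 5) in set A and 15.5 ± 13.6 (n = 5) against 50.3 ± 20.0 CPM (n = 3) in set B. By state it was 74.5 ± 35.8 CPM with both creb3l genes (n = 7), 103 in the creb3l2 crispant (n = 1), 25 ± 13.0 without creb3l1 (n = 3) and 13.7 ± 9.44 without both (n = 5).

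Around cfap126, 32 of the 40 tested genes had a lower and 8 a higher estimate after loss of creb3l1 in floor plate-like cells (median log2 change -0.34, and 0.00 over all genes). Next by p were cfap45, at 106 ± 37.5 against 164 ± 24.9 CPM (n = 8 each, adjusted p = 0.0662), and the transport gene ift57, at 126 ± 39.4 against 175 ± 28.4 CPM (adjusted p = 0.105). The sum over the 65 genes was 1808 ± 435 CPM without creb3l1 and 2281 ± 311 CPM with it (n = 8 each), a difference that was not tested; it was 2152 ± 522 against 2418 ± 295 CPM in set A and 1601 ± 227 against 2053 ± 199 CPM in set B. The level of foxj1a in these cells had a log2 change of -0.53 that was not called (unadjusted p = 0.0138, adjusted p = 0.296), and no other regulator was called in any comparison of genotypes.

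Loss of the other factors called none of the 40 genes in floor plate-like cells by edgeR or DESeq2. Mostly lower estimates were not particular to creb3l1, since loss of xbp1 had 31 lower and 9 higher (median log2 change -0.26). Loss of atf6 had 16 lower and 24 higher (0.09), and loss of creb3l2 had 10 lower and 30 higher (0.18). Medians over all genes were -0.01, 0.00 and 0.00. Loss of xbp1, with 0.116% of all genes called, had 7 at an unadjusted p below 0.05 (7.91% of all genes), led by rsph4a at 35.8 ± 15.4 (n = 5) against 46.0 ± 14.2 CPM (n = 11, adjusted p = 0.401), dnaaf1 (0.435) and ift81 (0.533). Loss of atf6, with 0.0289% of all genes called, had 1 (5.4%), which was rsph4a at 52.3 ± 18.5 against 38.5 ± 11.3 CPM (adjusted p = 0.621), followed by dnaaf1 and ift74 (0.953 each). Loss of creb3l2, with 0.26% of all genes called, had 6 (6.12%), led by ift81 (0.623), cfap36 (0.642) and dnah10 (0.767).

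In notochord-like cells 18 genes were tested, and 1, ift20, was lower after loss of creb3l1 (1.17% of all genes called, 0.994% lower) and after loss of creb3l2 (2.39% called, 2.29% lower). DESeq2 called 1 gene in each (173 and 235 of all 9460 genes), and 4 (12% of all genes) and 1 (10.2%) had an unadjusted p below 0.05. The ift20 level in libraries lacking creb3l1 was 53.6 to 140 CPM (median 74.4) and in the others 116 to 237 CPM (median 192). In libraries lacking creb3l2 it was 53.6 to 121 CPM (median 70.7) and in the others 83.3 to 237 CPM (median 165). Libraries lacking both were lowest, with 66.4 ± 9.74 CPM (n = 5, 53.6 to 77.8), and did not overlap those with both, at 185 ± 45.4 CPM (n = 7, 116 to 237). The share of all genes with such ranges apart is not given here. In between lay those without creb3l1 alone, at 113 ± 28.4 CPM (n = 3, 83.3 to 140), and the creb3l2 crispant, at 121 CPM (n = 1).

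The log2 change of ift20 was -0.85 ± 0.16 for loss of creb3l2 (SE, edgeR adjusted p = 0.00423) and -0.62 ± 0.15 for loss of creb3l1 (adjusted p = 0.0469). The first was called in all 16 omissions of a library (adjusted p 0.00222 to 0.0338) but not without the term for the set (0.0997). The second was called in 3 of 16, those without wild type replicate 1, wild type replicate 2 or quadruple replicate 2 (range 0.0263 to 0.294), and not with library totals as scale (0.076), without the set term (0.0678) or with a term for injection (0.0974). Within sets, libraries lacking creb3l2 had 87.4 ± 29.1 against 199 ± 38.0 CPM in set A and 63.6 ± 12.6 against 128 ± 40.1 CPM in set B, and those lacking creb3l1 had 93.7 ± 39.9 against 196 ± 45.6 and 78.2 ± 24.9 against 147 ± 40.3 CPM. In set B the libraries lacking creb3l2 were the same as those lacking xbp1, and all of them lacked creb3l1. Set B thus cannot tell these losses apart. Whether the losses of creb3l1 and creb3l2 add or interact was not tested. Libraries lacking both made up 5 of the 8 without creb3l1 and 5 of the 6 without creb3l2.

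Other transport genes of notochord-like cells did not pass the test. After loss of creb3l1, ift46 was at 31.4 ± 5.52 against 22.2 ± 6.49 CPM (adjusted p = 0.180) and ift27 at 22.9 ± 3.92 against 27.5 ± 6.25 CPM (0.383), and after loss of creb3l2, ift81 (0.557) and ift88 (0.583) came next by p. None of the 18 was called for loss of xbp1 by edgeR (0.18% of all genes) or DESeq2, with 0 at an unadjusted p below 0.05 (7.65%), where ift80 (0.739), cfap45 (0.744) and ift46 (0.762) had the smallest p. None was called for loss of atf6 by edgeR (0.0106% of all genes) or DESeq2, with 0 at an unadjusted p below 0.05 (3.01%), where dnaaf4, cfap36 and ift172 came first.

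**Figure D4:**
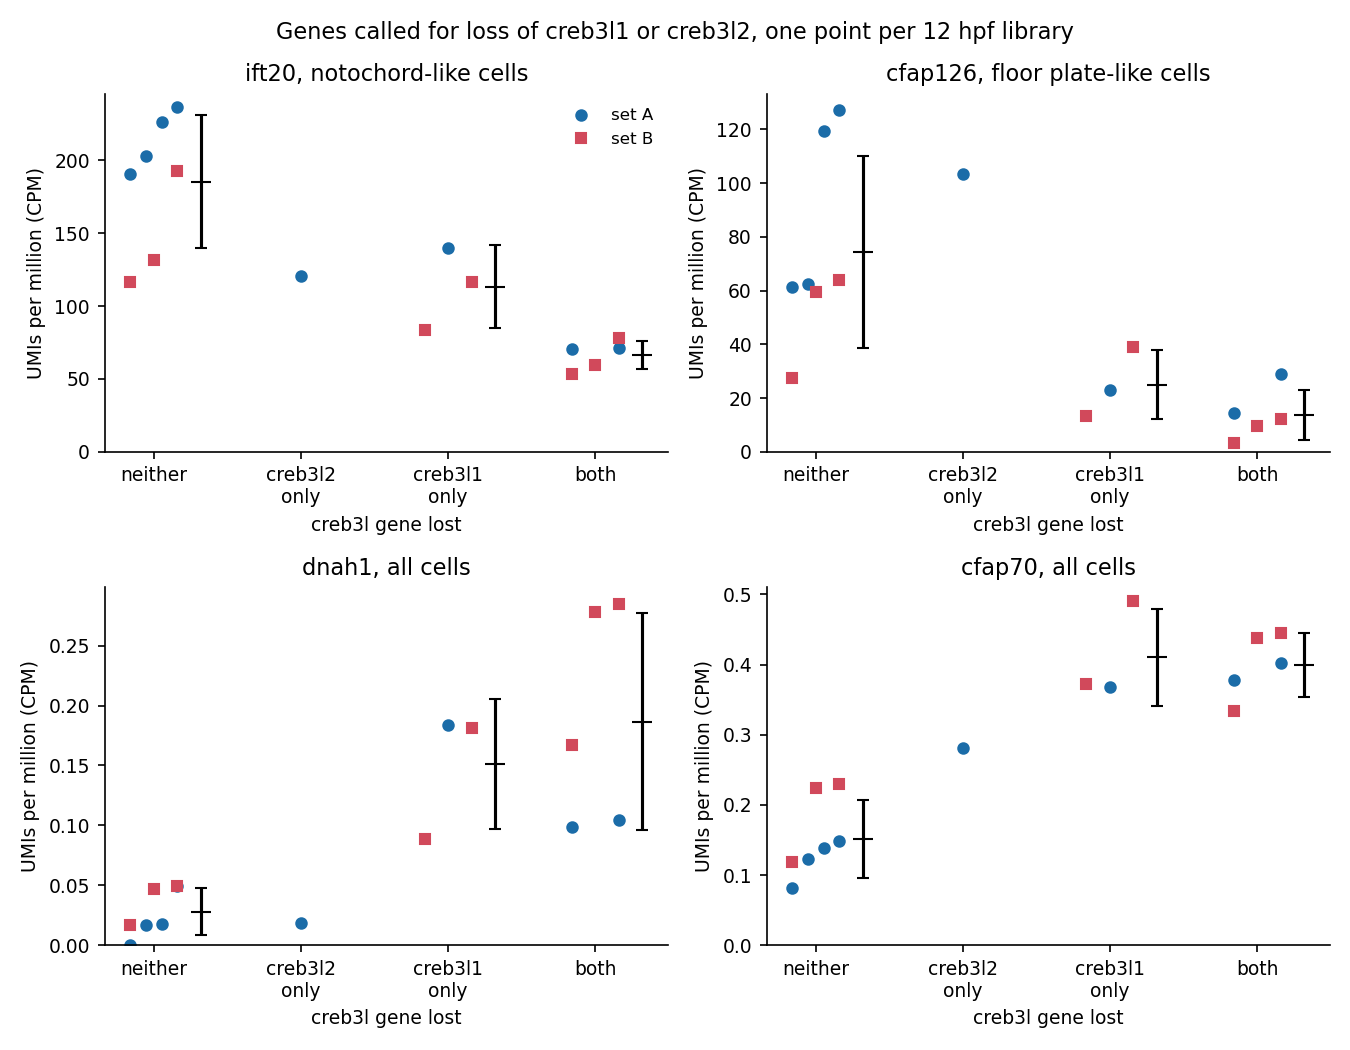
CPM per 12 hpf library of ift20 in notochord-like cells, cfap126 in floor plate-like cells, and dnah1 and cfap70 in all cells, by whether creb3l1 and creb3l2 were present; blue circles are set A, red squares set B, and black marks the mean ± SD. For ift20 the libraries lacking both genes reach 77.8 CPM at most and those with both start at 116, and for dnah1 and cfap70 every library lacking creb3l1 is above every library with it. The genes shown were picked by calls on the same counts, so ranges apart add no support.

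In hatching gland-like cells, where these genes were low, 9 were tested and 1 was called. The retrograde transport gene ift140 was at 5.51 CPM in the xbp1 crispant, 0.602 in the xbp1 and atf6 crispant, 3.34 in the xbp1, creb3l2 and creb3l1 combination, and 0 and 12.4 in the quadruple libraries. In the 11 libraries with xbp1 it was 8.27 to 21.4 CPM (median 11.6), so 4 of the 5 lacking xbp1 were below all of these. The log2 change was -1.79 ± 0.50 (SE, edgeR adjusted p = 0.0264), in a comparison that called 9.8% of all genes and 7.33% as lower. DESeq2 called 1 gene (810 of all 8646 genes), and 3 had an unadjusted p below 0.05 (22.9% of all genes). The call was lost without the atf6 crispant (adjusted p = 0.0751), the xbp1 and atf6 crispant (0.107), the atf6, creb3l2 and creb3l1 combination (0.0534) or the xbp1, creb3l2 and creb3l1 combination (0.0646).

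None of the other 8 genes of hatching gland-like cells was called after loss of xbp1; dnah2 (adjusted p = 0.0691) and cfap298, at 20.6 ± 6.37 against 11.1 ± 5.43 CPM (0.118), came closest. Loss of creb3l1 called none of the 9 by edgeR (1.39% of all genes) or DESeq2, with 3 at an unadjusted p below 0.05 (16.6%): rsph14 was at 13.8 ± 7.98 against 5.16 ± 3.81 CPM (adjusted p = 0.169), ahead of dnah2 (0.173) and ift20 (0.273). Loss of atf6 (0.0116% of all genes) and of creb3l2 (0%) called none by edgeR or DESeq2, and each had 1 gene at an unadjusted p below 0.05 (4.45% and 3.77% of all genes), with dnah2 first by p in both, followed by cfap298 and ift57 for atf6 and by rsph14 and cfap36 for creb3l2.

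The groups with 2 libraries were set against the tyr crispants directly, sharing these controls, with 58 genes tested. These comparisons are not balanced for set: tyr and the creb3l1 mutant have 1 library in set A and 1 in set B, whereas wild type and the quadruple lie wholly in set B. None was called by edgeR in wild type (0.0676% of all genes), the creb3l1 mutant (0.451%) or the quadruple (0.456%). DESeq2 called 0, 1 and 1 (56, 322 and 468 of all 17756 genes). An unadjusted p below 0.05 was found for 4 (2.77% of all genes), 6 (7.92%) and 5 (12%). With set as a term, an alternative chosen after seeing the data, edgeR again called none in each. In all cells cfap126 was at 1.93 ± 0.210 CPM in tyr crispants, 0.869 ± 0.324 in wild type, 0.577 ± 0.0591 in the creb3l1 mutant and 0.517 ± 0.0236 in the quadruple (n = 2 each). DESeq2 called it in the mutant (adjusted p = 0.0350) and the quadruple (0.00923), and edgeR gave 0.154 and 0.0959. Against tyr, dnah1 had adjusted p-values of 0.381 in the mutant and 0.208 in the quadruple.

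Next by p were cfap300 in the mutant (adjusted p = 0.487) and dnaaf3 in the quadruple (0.365). In uninjected wild type embryos the sum over the 65 genes was 359 ± 22.5 CPM, against 430 ± 13.4 CPM in tyr crispants (421 in the tyr library of set B), a difference that was not tested. Of the 58 estimates, 47 were lower in wild type (median log2 change -0.40, and -0.02 over all genes). The smallest p belonged to dnah10 (0.282 ± 0.0886 against 0.732 ± 0.0767 CPM), cfap126 and cfap57, each with an adjusted p of 0.896. Floor plate-like cells were 0.757 ± 0.0253% of cells in wild type and 1.31 ± 0.418% in tyr crispants (1.01% in that of set B), and the part of this difference in the sums was not tested.

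Of the other cilia genes, loss of creb3l1 called 3 of 131 (2.29%) in all cells, a share no higher than the 2.57% of all genes. They were arl3a (log2 change -1.02, edgeR adjusted p = 0.0454), b9d1, a transition zone gene (-0.99, 0.0196), and tctex1d2 (-0.92, 0.0372), each lower without creb3l1. In floor plate-like cells 1 of 100 was called (0.26% of all genes), tctex1d2 (-1.04, 0.0102), and in hatching gland-like cells 1 of 31 (1.39% of all genes), b9d1 (-1.48, 0.0371).

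At 8 hpf the question was whether an added factor raises these genes. With 1 library per group there is no test; values are given with exact Poisson 95% intervals, which cover counting error only, and a gene was counted where it had 20 UMIs in both libraries together. Against the mCherry library of the same xbp1 crispant background, atf6-N had 6 of 40 genes more than 2-fold higher and 5 lower (14.2% and 4.41% of all genes), creb3l1-N had 4 and 6 of 40 (12.9% and 3.63%), and creb3l2-N had 4 and 11 of 43 (14.8% and 7.6%). The 3 comparisons share this control. Median ratios were 1.02, 0.795 and 0.875 for these genes and 1.04, 0.933 and 0.955 for all genes. Full-length creb3l2 against its own mCherry library had 5 and 1 of 38 (4.04% and 2.26% of all genes), and the mCherry libraries, which differ in dose and xbp1, had 5 and 2 of 40 against each other (6.14% and 4.51%).

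Some of the genes more than 2-fold higher are given here. Shares of all genes were counted at 2-fold only, so how unusual larger ratios are is not shown. The level of ift20 was 25.1 CPM (23.8 to 26.4) in the xbp1 crispant mCherry library, 99.6 (97.3 to 102) with creb3l1-N and 75.2 (73.4 to 77.0) with creb3l2-N, which is 3.97-fold and 3.0-fold higher. It was 20.1 with atf6-N, 26.5 in the other mCherry library and 31.0 with full-length creb3l2. By contrast ift27 was highest with atf6-N, at 96.4 CPM (94.1 to 98.8) against 10.9, an 8.87-fold difference, and was at 15.6 with creb3l1-N, 19.5 with creb3l2-N, 17.3 with mCherry and 14.5 with full-length creb3l2. The highest ift20 and the highest ift27 thus came from different libraries.

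Rarer genes showed larger ratios. The inner arm gene dnah10 had 14 UMIs (0.237 CPM) in the control, 304 (4.25 CPM, 17.9-fold) with creb3l1-N and 457 (4.93 CPM, 20.8-fold) with creb3l2-N. For cfap126 these were 5 UMIs (0.0846 CPM), 120 (1.68 CPM, 19.8-fold) and 173 (1.87 CPM, 22.1-fold). With atf6-N both were low, at 0.120 and 0.0601 CPM. In the pair without the xbp1 crispant background, dnah10 was at 0.255 CPM with mCherry and 0.395 with full-length creb3l2, and cfap126 at 0.153 and 0.346 CPM. The gene cfap77 was at 0.874 CPM with creb3l2-N against 0.118 (7.38-fold).

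The atf6-N library was also higher in rsph4a, at 1.02 against 0.169 CPM (6.04-fold), dnah3, at 23 UMIs against 3 (6.81-fold), cfap70, at 0.616 against 0.169 CPM (3.64-fold), and cfap97, at 10.5 against 3.66 CPM (2.87-fold). Lower levels were seen in all 3 for dnaaf1, at 0.474 CPM in the control and 0.120 with atf6-N, 0.0978 with creb3l1-N and 0.0216 with creb3l2-N. The dynein gene dnah5 was at 1.24 CPM in the control and at 0.225, 0.587 and 0.205 CPM. For cfap52 the values were 0.372, 0.0902, 0.0698 and 0.0324 CPM. These genes are high in vesicle-like cells, of which the control library had 12, the atf6-N library 2, the creb3l1-N library 3 and the creb3l2-N library 0. The part of these cell numbers in the lower levels was not tested.

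The raised genes differed in where they were found. In notochord-like cells ift20 was at 73.7 CPM in the control, 67.7 with atf6-N, 207 with creb3l1-N and 167 with creb3l2-N, and its interval lay above that of the control in 7 of 9 classes with creb3l1-N and 8 of 9 with creb3l2-N. The same held for ift27 with atf6-N in 7 of 8 classes, including notochord-like cells at 101 against 12.6 CPM, and for ift27 with creb3l2-N in 4 of 9. For dnah10 it held in 0 of 9 classes with creb3l1-N and 3 of 9 with creb3l2-N, and for cfap126 in 1 of 9 and 0 of 9. These genes were rare, with cfap126 at most at 2.35 and 1.87 CPM in any class counted. Intervals within a class are wide at such levels, so a low count does not show that named classes lacked a rise. Most dnah10 UMIs, 91.1% with creb3l1-N and 85.6% with creb3l2-N, came from clusters without a name, as did 71.7% and 80.3% of cfap126 UMIs. These clusters held 52.9% and 57% of cells and 40.2% and 40.4% of all UMIs in these libraries, and 44.4% of cells in the control. Several come almost wholly from 1 library, so a cluster and its library cannot be told apart.

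**Figure D5:**
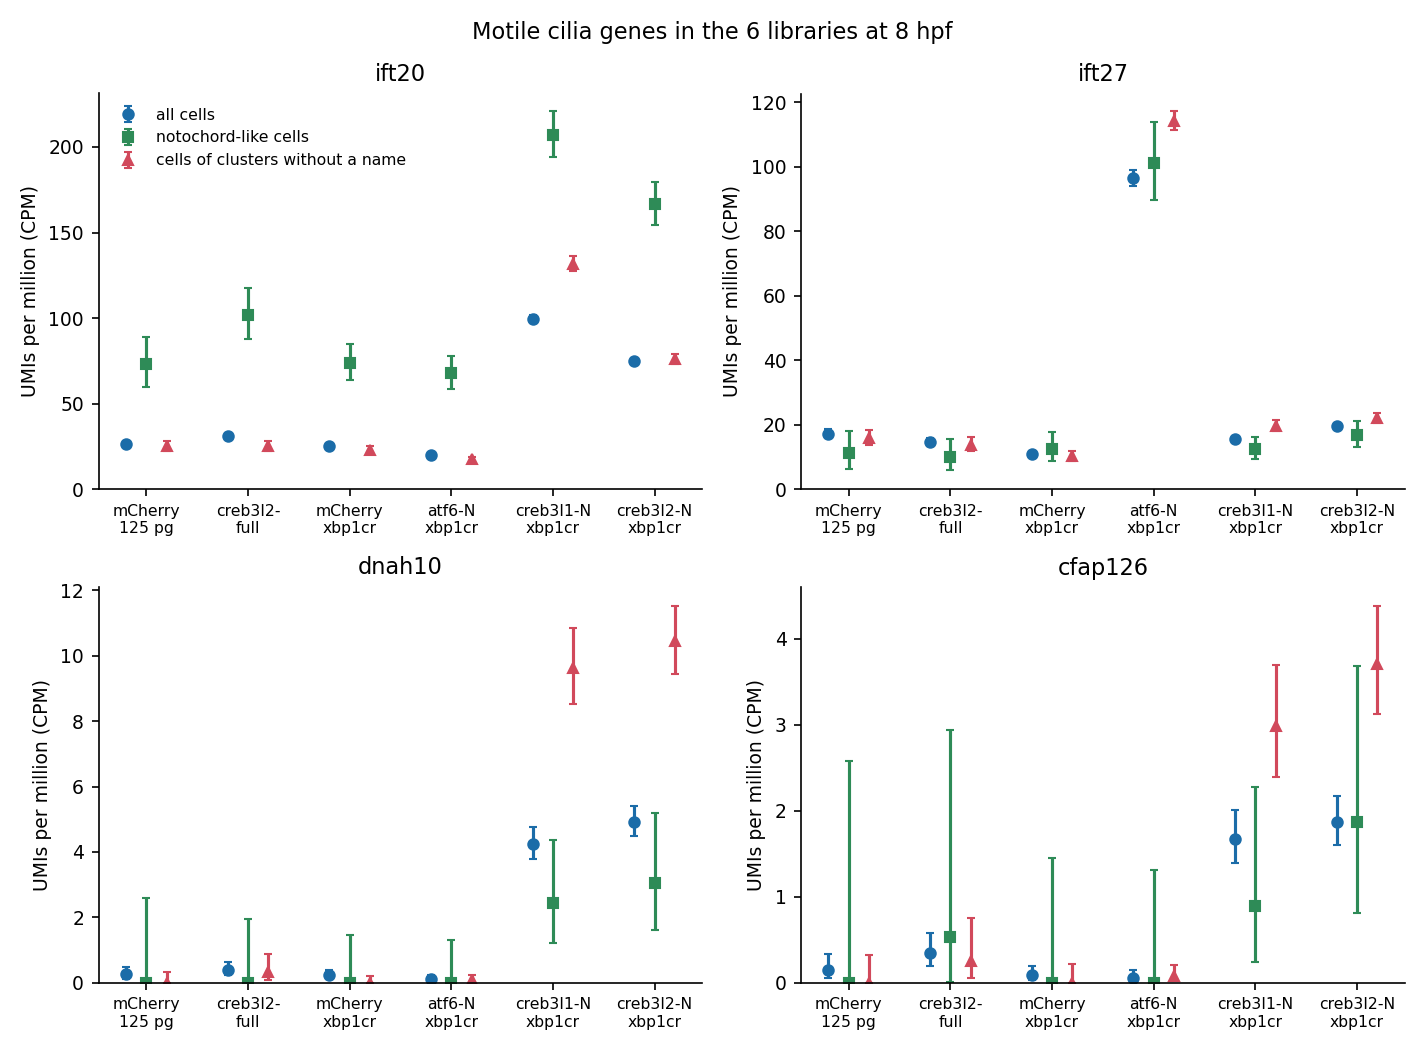
CPM of ift20, ift27, dnah10 and cfap126 in the 6 libraries at 8 hpf, for all cells, notochord-like cells and cells of clusters without a name; bars are exact Poisson 95% intervals. In all cells ift20 is at 99.6 with creb3l1-N and 75.2 with creb3l2-N, ift27 at 96.4 with atf6-N, and dnah10 and cfap126 are high in the creb3l1-N and creb3l2-N libraries.

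The same genes can be set beside the loss comparisons at 12 hpf. In notochord-like cells ift20 was lower without creb3l1 and without creb3l2 at 12 hpf and higher with either N-terminal part at 8 hpf. Its call for creb3l1 lay near the threshold and was lost in most omissions of a library. That for creb3l2 held in every omission but not without the term for the set. In floor plate-like cells cfap126 was lower without creb3l1, by a call at the threshold. In all cells of the 8 hpf embryos cfap126 was higher with creb3l1-N and with creb3l2-N. By class, its interval lay above that of the control in 1 of 9 and 0 of 9, where low counts make the intervals too wide to place the rise. For ift27, loss of atf6 called no change, whereas for dnah10 loss of neither creb3l gene called one in floor plate-like cells or all cells. The calls for loss and the levels with added mRNA come from different stages, sets and embryos.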

How the data were processed

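Whole-embryo single-cell libraries (10x 3' V3) were counted with Cell Ranger 3.1.0 (set A) or 6.1.2 (sets B and D), per the file headers; the genome build and annotation are not given in the sources used here. The values deposited by the authors are UMI counts per gene and cell, not normalized. Features were not summed under a symbol. Cells needed at least 1000 UMIs and at most 10% mitochondrial UMIs, and predicted doublets were removed (0.8% per 1000 barcodes). Each stage was clustered with scanpy 1.11.5 (2000 variable genes, 40 components, 15 neighbours, Leiden resolution 2); the 65 genes, other cilia genes, a secretory list and the regulators other than noto were left out. The vesicle-like class at 12 hpf is a subcluster, at resolution 0.5, of a cluster with endoderm and vesicle markers. A class name needed at least 3 markers among the 50 leading genes and is written with "-like".

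Counts were summed per library and class and tested with edgeR 4.0.16 quasi-likelihood fits in R 4.3.3 (DESeq2 1.42.0 as the alternative), after a filter on low counts, and the fits were tested on simulated data. Replicates are pools of embryos, and p-values rest on the spread between libraries that a fit leaves unexplained. The fit for loss of a factor assumes that the effects of the factors add. It leaves 10 residual degrees of freedom, whereas the fit of groups leaves 4. Its error therefore also holds departures from additivity and any effect of injection or of mutant against crispant. Apart from the creb3l1 crispant, the libraries lacking creb3l1 came from the mutant line. Effects of that line and of the loss are not separated in them. Its p-values thus do not measure the spread between replicate pools alone. UMIs from RNA free in the droplets were not removed, and their part in low levels was not tested. Ratios of classes use CPM pooled over all libraries of a stage, whatever their genotype. Genes named are those called in a comparison, otherwise the 3 with the smallest p, the 10 with the most UMIs, the 10 with the highest ratio in the vesicle-like class among those with at least 100 UMIs at that stage, and the leading gene of each family; others were chosen after their values were seen. The 65 genes and all lists were chosen with earlier results of these data known. More than 2-fold at 8 hpf was counted after adding 0.5 UMI; printed ratios have nothing added.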

Additional observations from a re-analysis of the deposited data

How the results depend on the processing

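Counts of called motile cilia genes were recomputed under each alternative. DESeq2 gave 5 for loss of creb3l1 in all cells (2 by edgeR), 2 in floor plate-like cells (1 by edgeR), and 1 for the creb3l1 mutant and 1 for the quadruple against tyr crispants (0 by edgeR). With no filter on low counts there were 4 for creb3l1 in floor plate-like cells (1), 1 for the quadruple (0) and, in hatching gland-like cells, 1 for atf6 (0), 3 for creb3l1 (0), 1 for creb3l2 (0) and 2 for xbp1 (1). Over all genes the unfiltered fits called, in the same order, 142 of 19098, 346 of 25315, and 100, 598, 51 and 997 of 20075. A term for injection left 1 for creb3l1 in all cells, 0 in floor plate-like and 0 in notochord-like cells. In notochord-like cells, library totals left 0 for creb3l1, and no term for the set left 0 for creb3l1 and 0 for creb3l2. With doublets kept, the vesicle-like sum at 12 hpf was 6399 CPM instead of 6928. The cause was not tested.

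Leaving out 1 library at a time gave 0 to 7 calls for creb3l1 in all cells, 0 to 2 in floor plate-like and 0 to 1 in notochord-like cells, 0 to 2 for xbp1 in hatching gland-like cells, 1 in each case for creb3l2 in notochord-like cells, and 44 to 47 between stages. All other comparisons gave 0 each time. No result changed direction. Same-numbered replicates correlated between -0.30 and 0.19, so the numbers do not pair the libraries as a whole, although for tyr and the creb3l1 mutant (correlation 0.17) replicate 1 is set A and replicate 2 set B; wild type and the quadruple lie in set B only, so the block does not correct for set there. A fit with the replicate block called 0 genes in each of the 3 comparisons with tyr crispants, as did a fit with set as a term, chosen after seeing the data. Library totals moved the median log2 change of all genes by 0.12 for atf6 in hatching gland-like cells and by 0.15 for the quadruple. Over all genes, DESeq2 called 1134 for creb3l1 (466 by edgeR) and 147 for xbp1 (22) in all cells. Depth limits the rare genes: dnah1 had at most 20 UMIs in any 12 hpf library, and the vesicle-like class had 1 to 14 cells a library, which allows no test by genotype.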
